A study of Mus musculus with 6 samples.

Results

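The BMP and TGF-beta signaling genes described here are a list of 51 named mouse genes, 51 of the 54232 genes in the deposited count table, and cover ligands, processing proteases, secreted and membrane antagonists, receptors, Smads and Id genes. They were taken from the table by gene symbol under a rule that uses no measured value, although the list was drawn up with earlier results of these data known. RNA-seq had been performed on primary oviductal muscle cells from pregnant mice on day 2, with 3 libraries from WT females and 3 from females with deletion of Pbrm1 (Pbrm1 cKO), all 8 to 12 weeks old and mated to stud males. Pbrm1 codes for a component of the PBAF form of the SWI/SNF remodeler, and the comparison asks which genes depended on it in oviductal muscle. In the study's Pbrm1 cKO mice a floxed allele was deleted by cre expressed from the progesterone receptor locus (Pbrm1 fl/fl; PR IRES-cre/+), so cells that did not express the receptor could keep Pbrm1. Oviducts of both groups were digested to single cells, plated in serum for 4 h and harvested 2 h after a change of medium, which means that the cells had been in culture with serum factors before RNA was taken. Controls are called WT here after the labels, whereas a legend in the study's supplement on these cells names Pbrm1 fl/fl controls, and which of these they were could not be settled. The same legend calls the replicates biological, but the number of animals behind a library is not given.

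Ligands of the TGF-beta family are secreted dimers that bring together type I and type II serine/threonine kinase receptors. Receptors for TGF-beta and activin mainly phosphorylate Smad2 and Smad3, and receptors for BMPs mainly phosphorylate Smad1, Smad5 and Smad9; both sets act in the nucleus together with Smad4. Much of the control lies outside the cell, where latent TGF-beta binding proteins hold TGF-beta in the matrix, tolloid proteases cleave matrix precursors and BMP antagonists, and follistatin, noggin and gremlin bind ligands. In smooth muscle, TGF-beta favors contractile gene expression and matrix production, and in the uterus BMP2 is needed for decidualization.

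Libraries held 15390818 to 18947947 counts, at which 3 counts corresponded to 0.159 to 0.193 CPM (counts scaled for library size), a limit that covers counting error only. Pbrm1 was at 170.1, 183 and 172 CPM in WT and at 43.5, 50.7 and 42.7 CPM in cKO (edgeR log2 fold change -1.94, SE 0.064, adjusted p = 9.13e-11), with counts over all exons. Smooth muscle markers were expressed, as the label implies: Acta2 averaged 1287 CPM, Tagln 1598 CPM and Des 239 CPM in WT, although Myocd was at 4.60 CPM. The summed smooth muscle markers ranged from 3654 to 3735 CPM in WT and from 4609 to 5211 CPM in cKO (6 of 10 higher, 1 lower). Markers of other cells were also present and moved with genotype: fibroblast markers summed to 1067 to 1083 CPM in WT and 1795 to 1917 CPM in cKO (7 of 9 tested higher, 1 lower), leukocyte markers to 702 to 754 and 1010 to 1087 CPM (7 of 8 tested higher), epithelial markers to 1048 to 1141 and 1248 to 1395 CPM (6 of 10 higher) and mesothelial markers to 205 to 215 and 153 to 155 CPM (4 of 6 lower). Endothelial markers summed to 368 to 388 CPM in WT and 308 to 314 CPM in cKO, but 7 of 10 did not pass and the fall lay in Kdr: without it the sums were 194 to 202 and 201 to 220 CPM. Of all genes tested, 21.9% were higher and 21.8% lower in cKO, the shares against which these marker counts stand. Of the epithelial markers that did not pass, Krt7, Foxj1 and Pax8 had log2 fold changes of -0.12, -0.27 and -0.125, and Cldn3 had 0.29. The fibroblast marker Clec3b and the lymphocyte markers Cd3e and Cd79a were under 0.5 CPM in both groups. The part of these shifts in the changes below was not tested, and in bulk RNA fewer cells of a type cannot be told apart from less RNA per cell.

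Of the 51 genes, 49 had enough counts to be tested, and 34 of these (69.4%) passed an edgeR adjusted p of 0.05, against a background of 43.7% of all 15376 genes tested. Of the 49, 22 were higher and 12 lower in Pbrm1 cKO, against 21.9% and 21.8% of all genes tested. The excess over these shares lay mainly in the rises, while the falls were near the background. Among genes with a mean of at least 10 CPM, 31 of 42 listed genes (73.8%) passed, against 51.8% of all such genes. The groups did not overlap for 35 of the 49 (71.4%), against 53.5% of all genes tested. The share among the listed genes was above that of genes at large, which is a description, since the list was not drawn up blind to these data. The changes were of ordinary size, with a median absolute log2 fold change of 0.40 among those that passed, as among all genes that passed (0.40). Of the 49, 3 passed with a change beyond 1 on the log2 scale, Bmp7 upward and Tll1 and Grem1 downward, against 6.49% of all genes tested. The median log2 fold change of the 49 was 0.10, against 0.0016 for all genes. Both activin ligands were lower and both latent TGF-beta binding proteins that passed were higher; every other role with more than 1 gene past the threshold held genes of both directions.

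**Figure D1:**
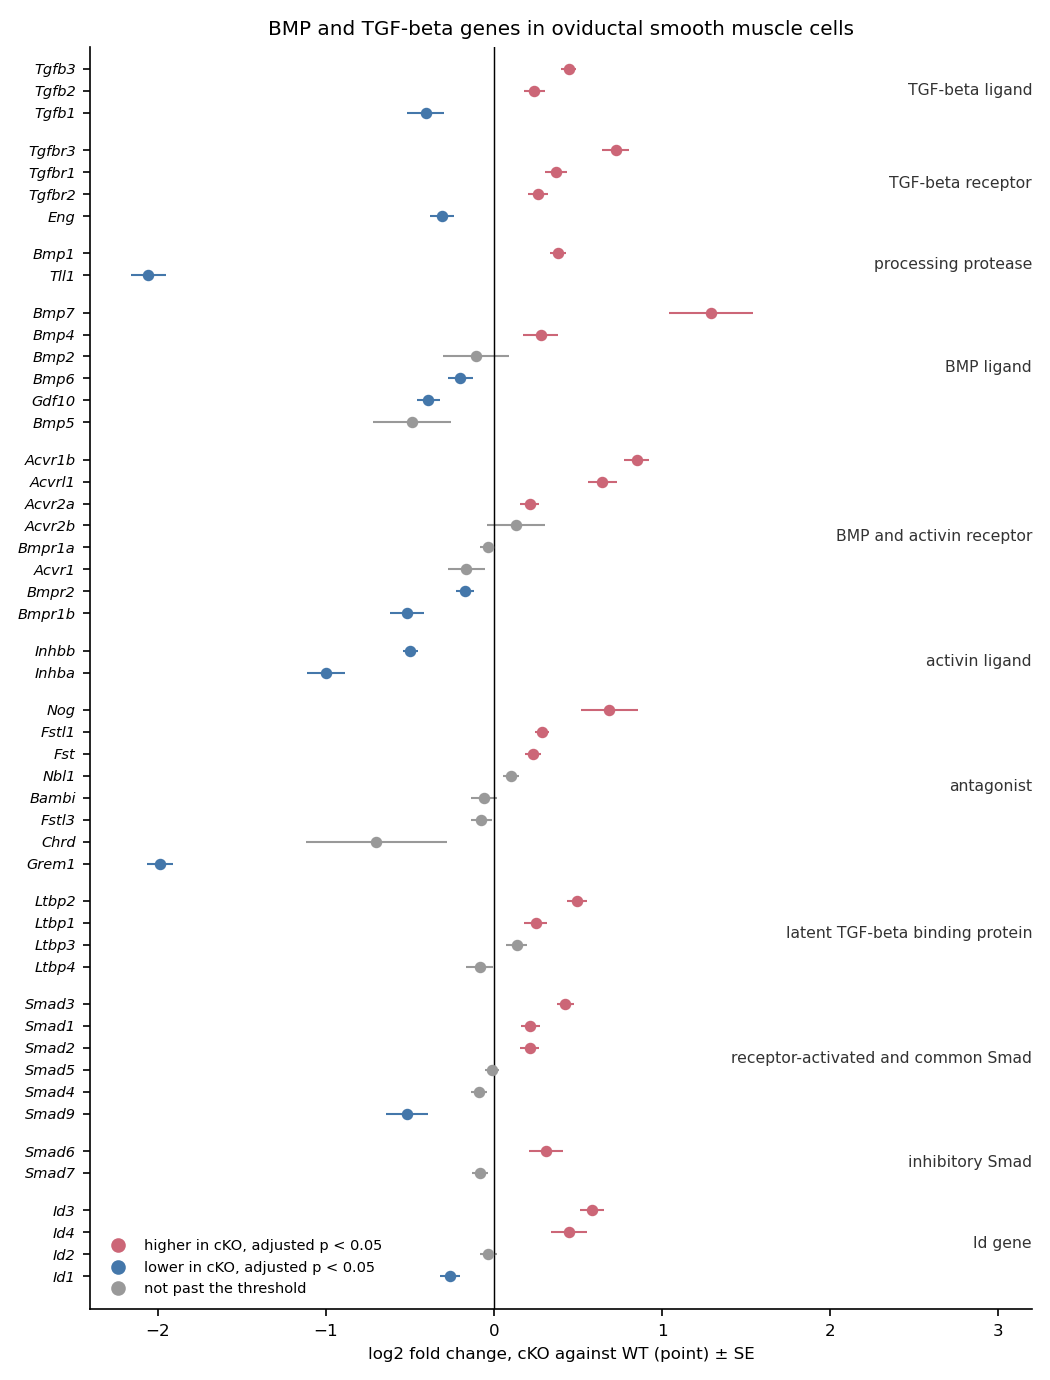
The log2 fold change (cKO against WT, edgeR) of each of the 49 tested BMP and TGF-beta genes is plotted with its SE, grouped by role, with genes past an adjusted p of 0.05 in color. Tll1 at -2.05 and Grem1 at -1.98 lie farthest to the left and Bmp7 at 1.29 farthest to the right, while most other points lie within 1 of 0.

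The activin ligands were both lower, and Inhba was also the most abundant listed gene in WT. It encodes the beta A subunit that pairs with itself to form activin A. Inhba was at 1734, 1909 and 1700 CPM in WT and at 849, 1114 and 714 CPM in cKO. The lowest WT library was above the highest cKO library, and the cKO mean was 50.1% of WT (edgeR log2 fold change -0.997, SE 0.114, adjusted p = 1.19e-05). Per length, in TPM (counts scaled to exon length and to a common total), Inhba had the highest mean level of the 51 genes in WT, at 883 ± 56.4 TPM (SD, n = 3), and the fifth highest in cKO, at 435 ± 98.9 TPM, where Fstl1, Ltbp2, Nbl1 and Id3 stood above it. Inhbb, the subunit of activin B, was at 117, 114 and 113 CPM in WT and at 80.2, 80.3 and 84.0 CPM in cKO. Libraries of each group lay close together and the groups were well apart (log2 fold change -0.50, SE 0.046, edgeR adjusted p = 1.66e-06).

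Fst and Fstl3, the genes of the follistatins that bind and neutralize activin, were not lower by the test. Fst was higher by 0.23 on the log2 scale (129 to 134 CPM in WT and 151 to 163 CPM in cKO, edgeR adjusted p = 0.00118), and Fstl1, a follistatin-like glycoprotein, was higher by 0.28 (961 to 972 and 1148 to 1195 CPM, adjusted p = 8.92e-05). Fstl3, a second follistatin that binds activin, gave 45.2 to 48.6 CPM in WT and 41.2 to 46.1 CPM in cKO and did not pass (log2 fold change -0.07). Within each library, Inhba TPM was 9.65, 10.2 and 9.18 times Fst TPM in WT and 4.02, 5.29 and 3.15 times in cKO. Inhba relative to Fstl3 averaged 14.7 ± 1.15 in WT and 7.73 ± 1.73 in cKO, and Inhbb relative to Fst averaged 0.938 ± 0.037 and 0.566 ± 0.0086 (SD, n = 3). None of these 3 ratios overlapped between groups. The exact two-sided permutation p was 0.1 for each, the smallest that 3 libraries against 3 allow. The ratios restate the gene differences above, since Inhba and Inhbb alone did not overlap either, and are not separate support.

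Of the 3 main receptors for activin, 2 moved the other way. Acvr1b, the type I activin receptor ALK4, was at 25.1, 24.3 and 24.0 CPM in WT and at 46.8, 39.6 and 46.1 CPM in cKO. The cKO mean was 180.3% of WT, the largest rise among the receptors listed here (log2 fold change 0.85, SE 0.074, edgeR adjusted p = 9.42e-07). Acvr2a, a type II receptor that binds activin directly, rose by 0.21 on the log2 scale (37.3 to 38.2 and 42.4 to 44.7 CPM, adjusted p = 0.00738). Acvr2b, its homolog, was low at 2.52 to 2.78 CPM in WT and 2.59 to 3.24 CPM in cKO and did not pass.

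**Figure D2:**
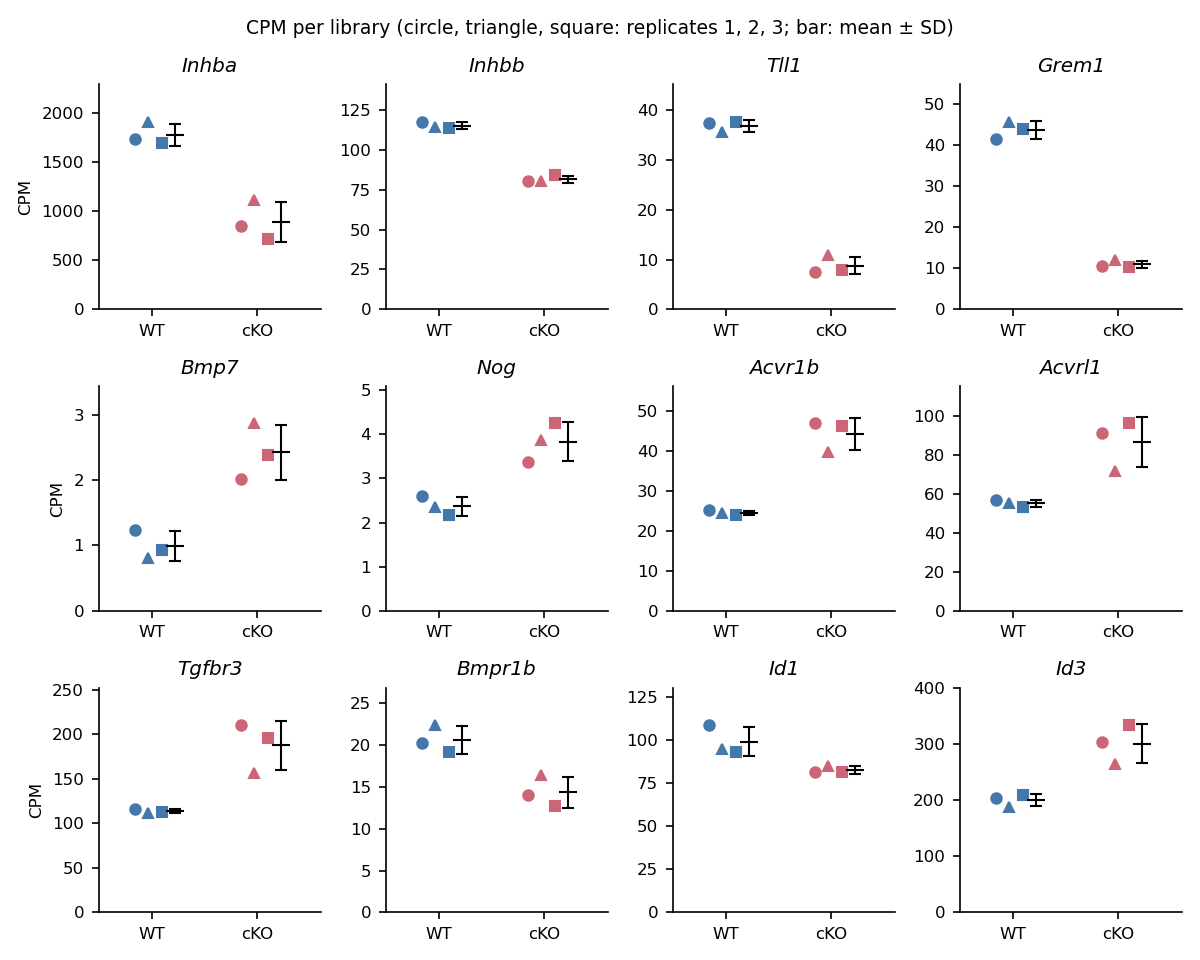
CPM in each of the 6 libraries is plotted for 12 of the genes, with the mean and SD of each group (n = 3) beside the points and each axis starting at 0. The WT and cKO points do not overlap in any of the 12 panels, all of which show genes past the threshold. Of the 49 tested genes 71.4% did not overlap, against 53.5% of all genes tested. In Inhba, Tll1, Grem1, Acvr1b, Acvrl1, Tgfbr3, Bmpr1b, Id1 and Id3 the cKO replicate 2 triangle is the cKO point nearest to WT.

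Grem1 and Tll1 fell the most. Grem1 encodes gremlin, a secreted antagonist that binds BMP2, BMP4 and BMP7. It was at 41.5, 45.7 and 44.0 CPM in WT and at 10.6, 12.0 and 10.4 CPM in cKO. The highest cKO library was far below the lowest WT library, with a cKO mean at 25.2% of WT (edgeR log2 fold change -1.98, SE 0.077, adjusted p = 5.78e-10). Tll1 encodes a tolloid-like metalloprotease that cleaves chordin and procollagens. Tll1 was at 37.4, 35.6 and 37.7 CPM in WT and at 7.59, 10.9 and 7.98 CPM in cKO, or 23.9% of WT by the means (edgeR log2 fold change -2.05, SE 0.106, adjusted p = 8.67e-09). Bmp1, which encodes a protease of the same family, rose from 140 to 153 CPM in WT to 184 to 197 CPM in cKO (log2 fold change 0.38, edgeR adjusted p = 3.22e-05). The TPM of Tll1 was accordingly 0.280, 0.275 and 0.308 of that of Bmp1 in the WT libraries and 0.044, 0.068 and 0.047 of it in the cKO libraries. Tll2, the remaining tolloid gene, had 0, 1 and 1 counts in WT and 0, 5 and 0 in cKO and was not tested.

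Of the remaining antagonists, Nog was the one past the threshold. Nog, which encodes noggin, was at 2.60, 2.35 and 2.17 CPM in WT and at 3.37, 3.87 and 4.25 CPM in cKO. The groups did not overlap, from 37 to 44 counts in WT and 60 to 73 in cKO (log2 fold change 0.69, SE 0.170, edgeR adjusted p = 0.00508). Chrd, which encodes chordin, had 5 to 17 counts in a library and did not pass (log2 fold change -0.70, SE 0.42). Chrdl1, a chordin-like gene, had 5 to 14 counts and was not tested. Nbl1, a DAN family antagonist, was abundant at 359 to 373 CPM in WT and 379 to 417 CPM in cKO; its ranges did not overlap but it did not pass (log2 fold change 0.10, edgeR adjusted p = 0.0941). Bambi, a receptor-like protein that lacks kinase activity, gave 18.6 to 20.4 and 18.3 to 19.5 CPM and a log2 fold change of -0.06.

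The BMP ligands that gremlin and noggin bind were low to moderate in level. Bmp7 was at 1.24, 0.802 and 0.937 CPM in WT and at 2.02, 2.87 and 2.38 CPM in cKO, from 15 to 21 and 36 to 54 counts. It rose by 1.29 on the log2 scale, the largest rise among the 51 genes, from a low start (SE 0.249, edgeR adjusted p = 9.00e-04). Bmp4 was at 16.8 to 18.7 CPM in WT and 17.8 to 24.1 CPM in cKO; the groups overlapped, and its log2 fold change of 0.28 had an edgeR adjusted p of 0.0451, which was lost in 8 of 14 alternative fits. Bmp2 was at 2.78 to 4.22 CPM in WT and 2.81 to 3.41 CPM in cKO and did not pass (log2 fold change -0.11). With Grem1 lower, the TPM of Bmp4 was 0.833, 0.709 and 0.705 of that of Grem1 in WT and 3.94, 2.74 and 4.27 times it in cKO. Bmp2 relative to Grem1 averaged 0.088 ± 0.021 in WT and 0.325 ± 0.051 in cKO (SD, n = 3; exact two-sided permutation p = 0.1, the smallest possible, for both ratios).

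Gdf10 and Bmp6 were lower. Gdf10, a ligand close to BMP3, was at 28.7 to 29.7 CPM in WT and 20.7 to 23.7 CPM in cKO (log2 fold change -0.39, edgeR adjusted p = 5.72e-04). Gdf10 lies 2.80 Mb from Pbrm1 on chromosome 14, and Bmpr1a, which did not pass, lies 3.29 Mb from it. Bmp4 and Bmp1, both higher in cKO, lie farther off on this chromosome, at 15.3 and 39.4 Mb. Controls with the floxed allele would share the interval around Pbrm1 with cKO and WT controls need not. Since the control genotype is not settled, any part of the interval in the Gdf10, Bmp4 and Bmp1 differences was not tested. Bmp6 was at 26.8 to 28.2 and 22.9 to 26.3 CPM (log2 fold change -0.20, edgeR adjusted p = 0.0404, lost in 7 of 14 alternative fits). Bmp5, at 1.87 to 2.46 CPM in WT and 1.18 to 1.80 CPM in cKO, did not overlap but did not pass (adjusted p = 0.107).

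The promoters of 4 genes are given. The activin and gremlin results turn on Inhba, Inhbb and Grem1. Smad6 is the 1 listed gene whose window held the Smad binding palindrome. No Smad result turns on it, since its groups overlapped and its call was lost in 4 alternative fits. RefSeq start sites were matched for 37 of the 51 genes, and each window runs from 250 bases before to 50 bases after the start on mouse GRCm38.p6. Windows were searched on both strands for GGCGCC, a GC-rich element bound by BMP Smads, for the Smad binding palindrome GTCTAGAC, and for CAGACA, the extended Smad box; the first 2 are their own reverse complements and no matches overlap in the windows printed. Capitals mark a match. Grem1 lies at chr2:113758599-113758898, minus strand; Inhba at chr13:16011601-16011900, plus strand; Inhbb at chr1:119422199-119422498, minus strand; and Smad6 at chr9:64022010-64022309, minus strand. They are written 5′ to 3′ in the direction of the gene.
Grem1: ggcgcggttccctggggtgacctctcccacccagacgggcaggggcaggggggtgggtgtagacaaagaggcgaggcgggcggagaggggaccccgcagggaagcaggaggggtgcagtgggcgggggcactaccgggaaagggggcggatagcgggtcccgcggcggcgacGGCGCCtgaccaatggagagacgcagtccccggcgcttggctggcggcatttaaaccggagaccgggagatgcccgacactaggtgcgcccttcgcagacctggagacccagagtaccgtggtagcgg
Inhba: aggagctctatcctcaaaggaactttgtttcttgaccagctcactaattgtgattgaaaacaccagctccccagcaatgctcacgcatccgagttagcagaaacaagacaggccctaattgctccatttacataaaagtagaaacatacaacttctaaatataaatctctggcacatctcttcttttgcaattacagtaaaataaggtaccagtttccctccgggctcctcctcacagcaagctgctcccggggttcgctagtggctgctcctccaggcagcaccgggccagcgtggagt
Inhbb: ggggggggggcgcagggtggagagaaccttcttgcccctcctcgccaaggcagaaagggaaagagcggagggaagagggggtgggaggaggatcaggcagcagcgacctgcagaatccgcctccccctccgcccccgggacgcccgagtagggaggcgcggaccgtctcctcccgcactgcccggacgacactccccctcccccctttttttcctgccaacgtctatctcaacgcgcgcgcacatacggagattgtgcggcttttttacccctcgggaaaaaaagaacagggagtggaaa
Smad6: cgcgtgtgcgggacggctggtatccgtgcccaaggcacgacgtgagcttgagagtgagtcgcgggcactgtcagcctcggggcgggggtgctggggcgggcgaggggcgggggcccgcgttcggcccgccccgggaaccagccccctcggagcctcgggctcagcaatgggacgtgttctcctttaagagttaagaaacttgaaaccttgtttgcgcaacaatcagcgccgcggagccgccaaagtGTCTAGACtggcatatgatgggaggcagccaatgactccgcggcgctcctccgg
The Grem1 window held GGCGCC with its first base 78 bases before the start, a match found in 12 of the 37 listed promoters (32.4%) and in 14.2% of 20576 promoters. GGCGCC holds only G and C. The base composition of listed and other promoters was not compared, so these shares are a description only. Smad6 held the palindrome across its start, as did no other listed promoter and 0.190% of all promoters. CAGACA was found in 7 of the 37 (18.9%) and in 19.6% of all promoters. The Inhba and Inhbb windows held none of these letters. Among the 12 genes with GGCGCC were Tgfbr1, Acvr1b and Id4, which rose, Grem1, Smad9, Bmpr2 and Gdf10, which fell, and Bmpr1a, Smad5 and Id2, which did not pass, so the match did not go with 1 direction.

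The TGF-beta ligands divided. Tgfb3 was at 126, 134 and 129 CPM in WT and at 179, 172 and 179 CPM in cKO. All cKO libraries were above all WT libraries (log2 fold change 0.45, SE 0.044, edgeR adjusted p = 3.22e-06), and by TPM it was the highest of the 3 ligands in both groups, at 121.5 ± 3.51 and 163 ± 3.90 TPM (SD, n = 3). Tgfb2 rose by 0.24 on the log2 scale (33.1 to 36.1 and 38.7 to 43.3 CPM, adjusted p = 0.00795). Tgfb1 was at 41.4, 35.5 and 32.8 CPM in WT and at 27.6, 32.0 and 22.8 CPM in cKO. The groups did not overlap, but the lowest WT library and the highest cKO library were within 1 CPM of each other (log2 fold change -0.40, SE 0.110, edgeR adjusted p = 0.00874), and without WT replicate 1 the adjusted p was 0.0525.

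Ltbp1, Ltbp2, Ltbp3 and Ltbp4 encode the latent TGF-beta binding proteins, which are also matrix proteins of elastic fibers. Ltbp2, which unlike its relatives does not bind latent TGF-beta, was at 1216, 1102 and 1064 CPM in WT and at 1510, 1728 and 1528 CPM in cKO. The cKO libraries were all higher (log2 fold change 0.50, SE 0.061, edgeR adjusted p = 2.42e-05). Ltbp1 rose by 0.25 on the log2 scale (678 to 694 and 738 to 927 CPM, adjusted p = 0.00859). Ltbp3 gave 55.4 to 66.5 CPM in WT and 64.2 to 68.8 CPM in cKO, Ltbp4 gave 108 to 143 and 112 to 122 CPM, and neither passed.

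**Figure D3:**
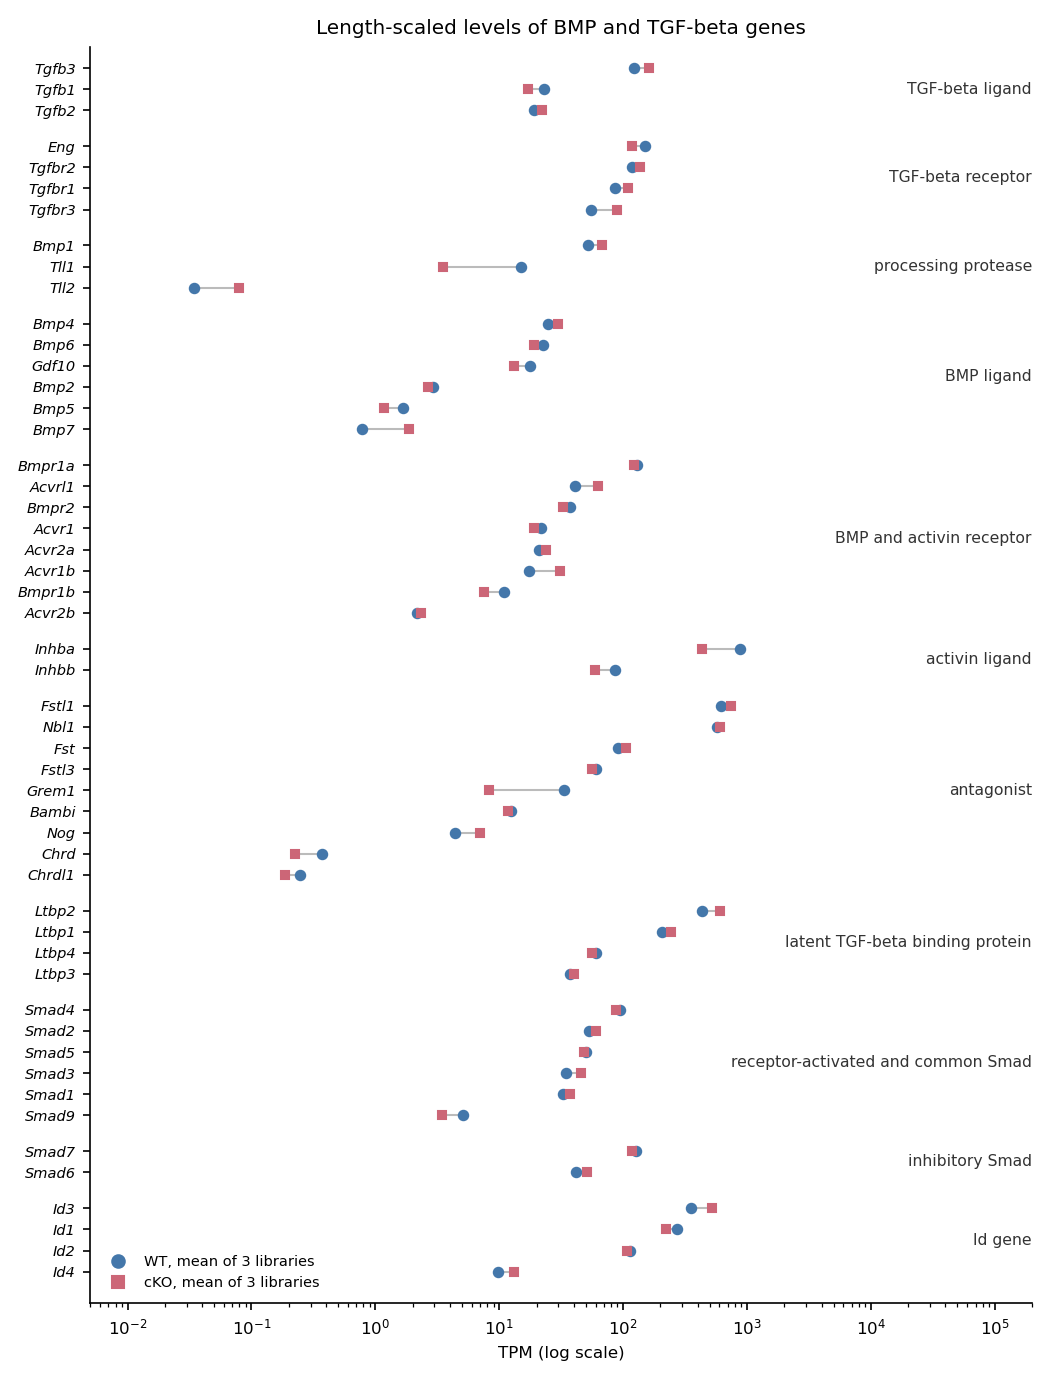
Mean TPM of each of the 51 genes, a count scaled to exon length, is plotted on a log axis for WT (circles) and cKO (squares), joined by a line and grouped by role. Inhba has the highest WT circle at 883 TPM, and the widest gaps among genes above 1 TPM in WT are those of Tll1 (15.1 to 3.54 TPM) and Grem1 (33.4 to 8.27 TPM).

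Among the TGF-beta receptors and coreceptors, 3 rose and 1 fell. Tgfbr3 encodes betaglycan, a coreceptor that presents TGF-beta and also binds inhibin. It was at 116, 112 and 113 CPM in WT and at 210.4, 157 and 195 CPM in cKO. The WT libraries were within 5 CPM of one another while the cKO libraries were spread, and all 3 cKO values were higher (log2 fold change 0.72, SE 0.082, edgeR adjusted p = 1.08e-05). In the annotation, 4.54% of the Tgfbr3 exon length is shared with another gene on the same strand. The signaling receptors Tgfbr1 and Tgfbr2 rose by 0.37 (170.1 to 184 and 201 to 248 CPM, adjusted p = 5.37e-04) and by 0.26 on the log2 scale (294 to 312 and 323 to 386 CPM, adjusted p = 0.0033). Eng, which encodes endoglin, a coreceptor abundant on endothelium, was lower by the test (173 to 205 CPM in WT and 138 to 167 CPM in cKO, log2 fold change -0.31, edgeR adjusted p = 0.00332).

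Receptors of the BMP branch also differed in direction. Acvrl1, the type I receptor ALK1 that works with endoglin, was at 57.1, 55.6 and 53.4 CPM in WT and at 91.6, 72.0 and 96.3 CPM in cKO. It rose in every cKO library (log2 fold change 0.64, SE 0.087, edgeR adjusted p = 4.88e-05), the opposite direction to Eng. Of the endothelial markers, Pecam1, Cdh5, Tek, Tie1, Emcn, Cldn5 and Erg did not pass, Kdr had a log2 fold change of -0.87, and Esam and Vwf had 0.28 and 1.71; their part in the Eng and Acvrl1 differences was not tested. Bmpr1b, a type I BMP receptor, was at 20.2, 22.4 and 19.1 CPM in WT and at 14.0, 16.4 and 12.7 CPM in cKO. All cKO libraries were lower (log2 fold change -0.52, SE 0.101, edgeR adjusted p = 9.78e-04). Bmpr1a, the type I receptor with the higher level, gave 129 ± 5.17 TPM in WT against 10.9 TPM for Bmpr1b, and did not pass (249 to 270 CPM and 248 to 254 CPM, log2 fold change -0.04). Bmpr2, the type II BMP receptor, was lower by 0.17 on the log2 scale (208 to 216 and 175 to 198 CPM, edgeR adjusted p = 0.0147), a call lost when WT replicate 2, WT replicate 3 or cKO replicate 3 was left out (adjusted p up to 0.0652). Acvr1, the type I receptor ALK2, was at 32.1 to 35.1 and 25.1 to 36.7 CPM and did not pass; without cKO replicate 2, its highest library, it did (log2 fold change -0.35, adjusted p = 9.83e-04).

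Inside the cell, the Smads of the activin and TGF-beta branch were higher. Smad3 was at 57.7, 60.5 and 62.2 CPM in WT and at 83.3, 79.3 and 79.5 CPM in cKO. The groups were well apart (log2 fold change 0.42, SE 0.051, edgeR adjusted p = 1.85e-05). Smad2 rose by 0.21 on the log2 scale (56.9 to 62.5 and 64.9 to 71.7 CPM, adjusted p = 0.00817). In the BMP branch, Smad1 rose by 0.22 (61.9 to 66.5 and 69.4 to 79.1 CPM, adjusted p = 0.00803), and Smad5 did not pass (116 to 119 and 115 to 118 CPM). Smad9, the least abundant, was at 7.39, 9.41 and 8.90 CPM in WT and at 6.13, 6.10 and 5.73 CPM in cKO. It was lower in every cKO library (log2 fold change -0.52, SE 0.122, edgeR adjusted p = 0.00376). Smad4, which both branches share, was at 107.2 to 112 CPM in WT and 101 to 106.8 CPM in cKO, without overlap, and did not pass (log2 fold change -0.09, adjusted p = 0.143).

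The genes that read out the pathway gave mixed values. Id1, Id2, Id3 and Id4 encode inhibitors of bHLH transcription factors, and Id1 to Id3 are standard targets of BMP Smads. Id3 was at 204, 188 and 208 CPM in WT and at 303, 264 and 333 CPM in cKO. All cKO libraries were higher (log2 fold change 0.58, SE 0.072, edgeR adjusted p = 2.21e-05). Id1 was at 109, 94.9 and 93.2 CPM in WT and at 81.1, 84.9 and 81.2 CPM in cKO, lower in every cKO library (log2 fold change -0.26, edgeR adjusted p = 0.00288). Id4 was at 12.7, 11.4 and 11.7 CPM in WT and at 18.7, 14.6 and 15.3 CPM in cKO. It rose (log2 fold change 0.45, SE 0.105, edgeR adjusted p = 0.00374), while Id2 did not pass (83.7 to 88.5 and 79.8 to 88.4 CPM). Within libraries, Id1 TPM was 0.821, 0.781 and 0.691 of Id3 TPM in WT and 0.414, 0.497 and 0.376 of it in cKO. The groups did not overlap, which was already so for Id1 and for Id3 alone. Of the inhibitory Smads, which are induced by the pathway and limit it, Smad6 was at 47.5, 40.4 and 38.2 CPM in WT and 53.3, 43.9 and 59.5 CPM in cKO. Its groups overlapped, and the log2 fold change of 0.31 (edgeR adjusted p = 0.0232) no longer passed in 4 of the 6 fits with a library left out. Smad7 was at 173 to 185 and 164 to 177 CPM and did not pass (log2 fold change -0.09).

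Libraries of the cKO group did not contribute evenly. cKO replicate 2 was the cKO library nearest to the WT mean for 23 of the 34 genes that passed (67.6%) and for 3804 of the 6723 genes that passed in the whole table (56.6%), and it had the highest Pbrm1 level of the cKO libraries at 50.7 CPM. Without it 33 of the 34 genes passed and Bmp6 did not (adjusted p = 0.103), while Acvr1 was added. Whether residual Pbrm1 had a part in this was not tested.

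A list of 81 further genes of the pathway and its targets was read for context, of which 58 had enough counts and 33 (56.9%) passed, 14 higher and 19 lower, against 43.7%, 21.9% and 21.8% of all genes tested. The rises of this list were near their background share and the falls above it. Shares in the ligand and receptor groups were below the background of all changes or near it. Among the ligands 1 of 9 tested rose and 2 fell, among receptors and coreceptors 2 of 5 fell, among extracellular modulators 3 of 12 rose and 4 fell, among genes for release of latent TGF-beta 4 of 7 rose and 2 fell, among intracellular modulators 2 of 12 rose and 4 fell, and among target genes 4 of 13 rose and 5 fell. The largest change was in Gdf3, which encodes a ligand related to nodal and the BMPs. Gdf3 was at 0.414, 0.267 and 0.410 CPM in WT and at 6.47, 5.30 and 7.66 CPM in cKO. WT libraries held 5 to 7 counts, a little above the limit of 3, and every cKO library was well above it (log2 fold change 4.13, SE 0.257, edgeR adjusted p = 4.77e-08). Inha, the alpha subunit that turns activin subunits into inhibin, was at 26.4, 21.6 and 26.9 CPM in WT and at 16.3, 7.75 and 15.6 CPM in cKO. It fell along with Inhba and Inhbb (log2 fold change -0.93, SE 0.190, edgeR adjusted p = 0.00139).

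Other large changes in that list fell in different roles. Sost, which encodes sclerostin, was low and fell from 1.23 to 1.66 CPM in WT to 0.193 to 0.424 CPM in cKO (log2 fold change -2.11, SE 0.343, edgeR adjusted p = 2.41e-04). Amhr2, the receptor of anti-Müllerian hormone, had a log2 fold change of -1.24 from 2.34 to 3.53 CPM in WT to 0.849 to 1.61 CPM in cKO. Cd109, a TGF-beta coreceptor that restrains signaling, had -1.20 (67.8 to 76.8 and 29.1 to 36.7 CPM). Among target genes, Tgfbi rose by 1.07 on the log2 scale (79.7 to 93.5 and 166 to 202 CPM) and Atoh8 by 1.01 (25.5 to 29.3 and 52.9 to 58.1 CPM), while Msx2 had -0.94 and Runx2 -0.72. Dcn, the proteoglycan decorin that binds TGF-beta, rose by 0.92 (257 to 278 and 471 to 533 CPM), and Nrros and Itgb8, which anchor and release latent TGF-beta, rose by 0.80 and 0.72. Target genes of the pathway therefore had changes in both directions, as did the Id genes.

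**Figure D4:**
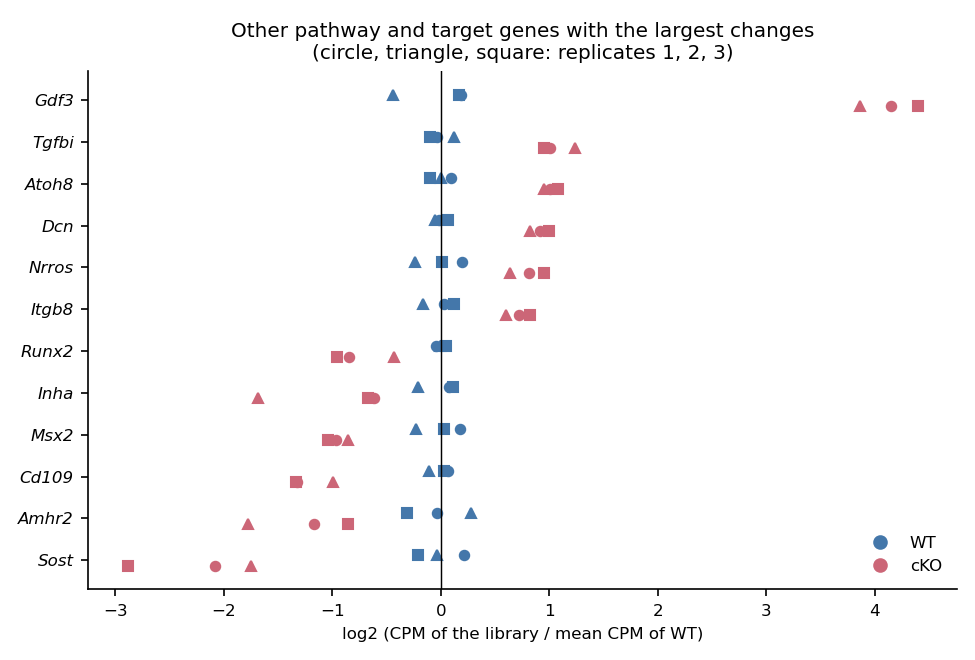
The log2 ratio of each library's CPM to the mean CPM of the WT libraries is plotted for the 12 further pathway and target genes with the largest changes among those past the threshold; shapes mark replicates 1, 2 and 3. Gdf3 lies apart at about 4, and in each of the 12 genes the 3 cKO points fall on 1 side of all 3 WT points. Such separation follows largely from choosing genes by size of change. Of the 58 tested genes of this list 55.2% did not overlap, against 53.5% of all genes tested.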

How the data were processed

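RNA-seq of oviductal muscle cells, 3 WT and 3 Pbrm1 cKO libraries grouped by the sample titles, was analysed. The authors deposited raw read counts per gene; the headers name featureCounts 1.6.4 in reverse-stranded mode over GENCODE M18 exons, with defaults that drop multimapping reads and reads assigned to more than 1 gene. The submitters' processing notes name cutadapt, HISAT2 and GRCm38.p5. Exon lengths in the table were used for TPM. Symbols were taken from GENCODE M21 for 54079 of 54232 genes (99.7%).

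Counts were tested with edgeR 4.0.16 in R 4.3.3 (TMM scaling, filterByExpr, quasi-likelihood F-test, two-sided) over 15376 genes, with Benjamini-Hochberg adjustment and a threshold of 0.05. CPM use the TMM library sizes. The SE is the size of the log2 fold change divided by the square root of F. All pairs of libraries within a group differed by more than sampling noise (chi-square per gene 1.28 to 1.60). Library totals of 15390818 to 18947947 set the limit of 3 counts at 0.159 to 0.193 CPM. On simulated counts with a log2 change of 1, 191 of 200 changed genes (95.5%) were recovered among 15438, with 15 false calls, and 1 call was made among 15462 genes with no change. The changed genes were drawn from those with higher counts. The recovery therefore does not describe smaller changes or genes with few counts.

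The listed genes, the further pathway genes and the markers were chosen with earlier results of these data known. All 51 listed genes are accounted for; those past the threshold with a log2 change of at least 0.4 in size are given by library, as are those needed for a ratio or comparison. Of the further pathway genes, the 12 with the largest changes past the threshold are named. The endothelial sum without Kdr was added after the data were seen. Alternatives were DESeq2 1.42.0, limma-voom (limma 3.58.1), 3 scalings, 2 filters, 2 thresholds, a block for replicate number and the omission of single libraries. Promoter windows came from RefSeq on GRCm38.p6. Promoters of the remaining 14 listed genes were not analysed here.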

Additional observations from a re-analysis of the deposited data

How the results depend on the processing

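The number of listed genes past the threshold was 34 and stayed between 30 and 34 under the other tests, scalings, filters, the stricter adjusted p of 0.01 and the omission of each library. Requiring a log2 change above 1 as well left 3 listed genes, 6 of the 33 further pathway genes and 998 of the 6723 genes in the whole table. Leaving out single libraries gave 28 to 40 further pathway genes and 5532 to 7054 genes in all. Of the 34 listed genes, 29 passed in every one of the 14 alternative fits; the exceptions were Tgfb1, Bmp4, Bmp6, Bmpr2 and Smad6. Acvr1, Nbl1 and Ltbp3 passed in 1 alternative each: Acvr1 without cKO replicate 2, Nbl1 with library size scaling (adjusted p = 0.0491) and Ltbp3 without WT replicate 1 (adjusted p = 0.0245). Among genes that did not pass, the log2 fold change with single libraries left out ranged from -0.22 to 0.11 for Bmp2 (positive without WT replicate 3), from -0.18 to 0.026 for Ltbp4 (positive without WT replicate 1), from -0.022 to 0 for Smad5 (0 without WT replicate 3) and from -0.061 to 0.016 for Id2 (positive without cKO replicate 2), and it was 0.0037 for Smad5 with library size scaling; the cause was not tested. Replicate numbers were shared between groups, and correlations of same-numbered deviations were -0.032, 0.044 and 0.111. Those of differently numbered libraries ran from -0.097 to 0.053, and with 3 libraries in a group whether the numbers pair the libraries was not settled. A fit with replicate as a block passed 34 listed genes, the same ones, 39 further pathway genes and 6908 genes in all. Over all genes tested, the median change was between -0.010 and 0.017 on the log2 scale under the scalings tried. Low counts limited Tll2 and Chrdl1, which the filter removed before the main test, and Chrd, with at most 17 counts.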

Other observations

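Of the further pathway genes, some of the most abundant, chosen here after their values were seen, are standard TGF-beta targets or regulators and were lower in cKO. Ccn2, a matricellular protein, was at 1726, 1767 and 1699 CPM in WT and at 1369, 1312 and 1352 CPM in cKO (log2 fold change -0.36, edgeR adjusted p = 1.31e-05), and Thbs1, an activator of latent TGF-beta, had -0.28 (edgeR adjusted p = 0.00184). Pmepa1, a feedback inhibitor of Smad signaling, had -0.46, and the transcriptional repressors Ski and Skil had -0.36 and -0.24. Col1a1 did not pass (2264 to 2860 CPM in WT and 2499 to 3069 CPM in cKO). Lrrc32, which tethers latent TGF-beta to the cell surface, rose by 0.59 and Bmper, an extracellular BMP regulator, by 0.44 on the log2 scale, while Crim1, a transmembrane BMP-binding protein, had -0.47.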
